A study of Mus musculus with 7 samples.

Results

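The core circadian clock was examined through 10 genes named by symbol (Clock, Arntl, Per2, Per3, Cry1, Cry2, Nr1d1, Nr1d2, Dbp and Tef) in lung endothelium of mouse embryos labelled wild-type or Sash1-knockout. A gene was read from a probe set (a group of array probes summarised as 1 value) that the platform annotation ties to exactly 1 symbol, and where several qualified the brightest over all arrays was used. Of the 10 genes, 9 had such a probe set, out of 22180 genes on the array. The probe set that names Per2 also names 9830107B12Rik, so Per2 was not analysed here. There were 7 arrays: W1, W2 and W3 carry the label wild-type and K1, K2, K3 and K4 the label Sash1-knockout (Sash1-/-). All came from embryos on a C57BL/6 background at E18.5, with the knockout embryos taken from the same litters as wild-type ones. Each sample held viable lung cells sorted as CD31+/CD45-/CD326-, that is, endothelial cells set apart from leukocytes and epithelium. The knockout was not restricted to a cell type in the labels, so other cells of the embryo also lacked the gene under that description. The hour of collection, the number of embryos per sample and whether samples came from separate embryos are not given in the sources used here, and p-values therefore measure only the spread between these samples.

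The circadian clock is a transcriptional feedback loop that runs in most cells, endothelium included. CLOCK and ARNTL (also called BMAL1) form a dimer that binds E-box sequences and activates the Per and Cry genes, whose proteins return to the nucleus and repress that dimer. A second loop runs through the nuclear receptors REV-ERB alpha and beta (Nr1d1 and Nr1d2), which are activated by the same dimer and repress Arntl. DBP and TEF, transcription factors of the PAR bZIP family, carry the rhythm to output genes through D-box sequences. In adult tissues the transcripts of Arntl and of Nr1d1 or Dbp peak at roughly opposite times of day.

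Values are deposited log2 signals made with RMA, so 1 unit is a doubling, and array medians over all probe sets lay between 3.86 and 4.03. The endothelial markers Pecam1, Cdh5, Kdr, Tek, Tie1, Cldn5, Erg and Emcn averaged between 10.17 and 10.44 on every array. Markers of lung epithelium were measured as well, with list averages of 7.48 to 8.54 in W1 to W3 and 6.62 to 8.34 in K1 to K4, for 8 of 8 genes. Within that list Sftpc read 11.86 to 12.00 outside K4, above Pecam1 (11.03 to 11.21), and Epcam read 4.06 to 5.31. K4 was lowest for Sftpc (10.2), Sftpb (6.13) and Sftpa1 (4.7), while Nkx2-1 and Krt8 were lowest in W3. In such a bulk sample, fewer cells of a type and less RNA per cell cannot be told apart. Sash1 itself measured 9.02, 8.73 and 8.33 in W1, W2 and W3 and 8.29, 8.21, 8.68 and 8.13 in K1 to K4. The Sash1 signal was therefore well above the array median under both labels, and knockout-labelled minus wild-type-labelled gave -0.37 (95% confidence interval -0.83 to 0.10, adjusted p = 0.971). W3 lay among knockout-labelled values and K3 among wild-type-labelled ones, and the removed part of the gene is not given in the sources used here. Groups are for this reason named by their labels, every direction rests on those labels, and the difference of each clock member is also given without those 2 arrays.

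Promoter sequence from RefSeq (build GRCm38.p6) was searched for the elements that tie the clock genes to each other, in windows from 250 bases before to 50 bases after the annotated start, on both strands. Tef and Per3 are shown because they were the 2 members with positive differences, and Nr1d1 and Nr1d2 because they varied most between arrays. Each line gives the 250 bases before the start, 5′ to 3′ on the gene's strand, with matches in capitals.
Tef, chr15:81802423-81802672, plus strand: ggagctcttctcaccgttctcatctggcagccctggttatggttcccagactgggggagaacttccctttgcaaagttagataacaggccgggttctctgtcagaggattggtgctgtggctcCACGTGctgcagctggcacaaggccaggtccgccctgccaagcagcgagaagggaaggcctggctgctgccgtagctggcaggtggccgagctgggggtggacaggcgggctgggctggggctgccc
Per3, chr4:151044666-151044915, minus strand: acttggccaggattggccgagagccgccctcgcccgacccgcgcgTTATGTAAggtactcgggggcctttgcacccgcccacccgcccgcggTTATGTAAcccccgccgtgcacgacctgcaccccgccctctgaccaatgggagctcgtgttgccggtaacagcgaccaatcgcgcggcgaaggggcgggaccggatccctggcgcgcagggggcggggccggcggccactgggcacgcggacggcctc
Nr1d1, chr11:98775378-98775627, minus strand: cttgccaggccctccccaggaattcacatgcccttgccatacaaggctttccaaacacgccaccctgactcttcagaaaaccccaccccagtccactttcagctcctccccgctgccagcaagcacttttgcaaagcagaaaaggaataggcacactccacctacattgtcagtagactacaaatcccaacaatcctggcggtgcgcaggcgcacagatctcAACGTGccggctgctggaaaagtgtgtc
Nr1d2, chr14:18239107-18239356, minus strand: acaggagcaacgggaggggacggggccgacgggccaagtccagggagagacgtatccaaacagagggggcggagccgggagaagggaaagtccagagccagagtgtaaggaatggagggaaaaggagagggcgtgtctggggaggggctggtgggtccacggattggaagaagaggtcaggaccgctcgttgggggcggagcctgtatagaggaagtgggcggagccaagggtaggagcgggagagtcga
The Tef window holds an E-box (CACGTG) whose first base lies at position -127, counted back from the start. Per3 holds 2 copies of the D-box letters TTATGTAA, at -205 and -158. The other Tef window in the table holds an E-box at -138. Nr1d1 holds the E-box variant CACGTT (printed as its reverse complement, AACGTG) at -28, and Nr1d2 holds no match. Over the 9 members with windows in the table, the E-box was found in Cry1 and Tef, the variant CACGTT in Cry1, Cry2 and Nr1d1, a D-box (TTATGTAA or TTACGTAA) in Per3, and the core of the ROR element that REV-ERB proteins bind (TAGGTCA or TGGGTCA) in 1 of the Arntl windows. The cAMP response element TGACGTCA was in none of them. Among 32851 windows of the same length, 7.15% held the E-box, 4.68% the variant, 1.06% a D-box, 6.45% the ROR core and 1.79% the cAMP response element. No searched letters of different elements overlapped in the printed windows, and a match in letters is a description, not a bound site.

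Differences between labels were then measured gene by gene to see whether the clock transcripts differed between the labels. None of the 9 members passed the test. Tef, a PAR bZIP activator, had the largest positive difference, at 0.49, and Arntl, the partner of CLOCK, the largest negative one, at -0.42. Of the 9 members, 7 had lower and 2 (Tef and Per3) had higher means in K1 to K4, with a median difference of -0.16. The count of negative differences was 6 without W2 (Cry2 turned) and under quantile normalization or median centring (Dbp turned). Over all 16637 genes tested 45.6% had a negative difference and the median was 0.01. With limma and Benjamini-Hochberg adjustment 0% of all genes were called at an adjusted p under 0.05, and the members' adjusted p-values ranged from 0.971 to 0.994. At an unadjusted p under 0.05 there were 0 members, against 3.34% of all genes. In 9 of the 18 alternatives 1 member reached it, Tef in 7 and Nr1d2 in 2, and none passed adjustment. The share of all genes was 2.37% to 7.87% in those of Tef. In those of Nr1d2 it was 7.9% (without W3) and 10.7% (without W3 and K3). With all arrays under their labels, the confidence intervals of the 9 members lay within 0.509 to 1.98 times the wild-type-labelled level. Each interval is for 1 gene and is not adjusted for the number of genes. Nr1d2 gave the lower bound, and its difference moved from -0.35 to -0.69 without W3 and K3. Tef gave the upper bound, and its difference moved from 0.49 to 0.50. Intervals without W3 and K3 are not given, so these bounds do not cover that comparison.

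**Figure D1:**
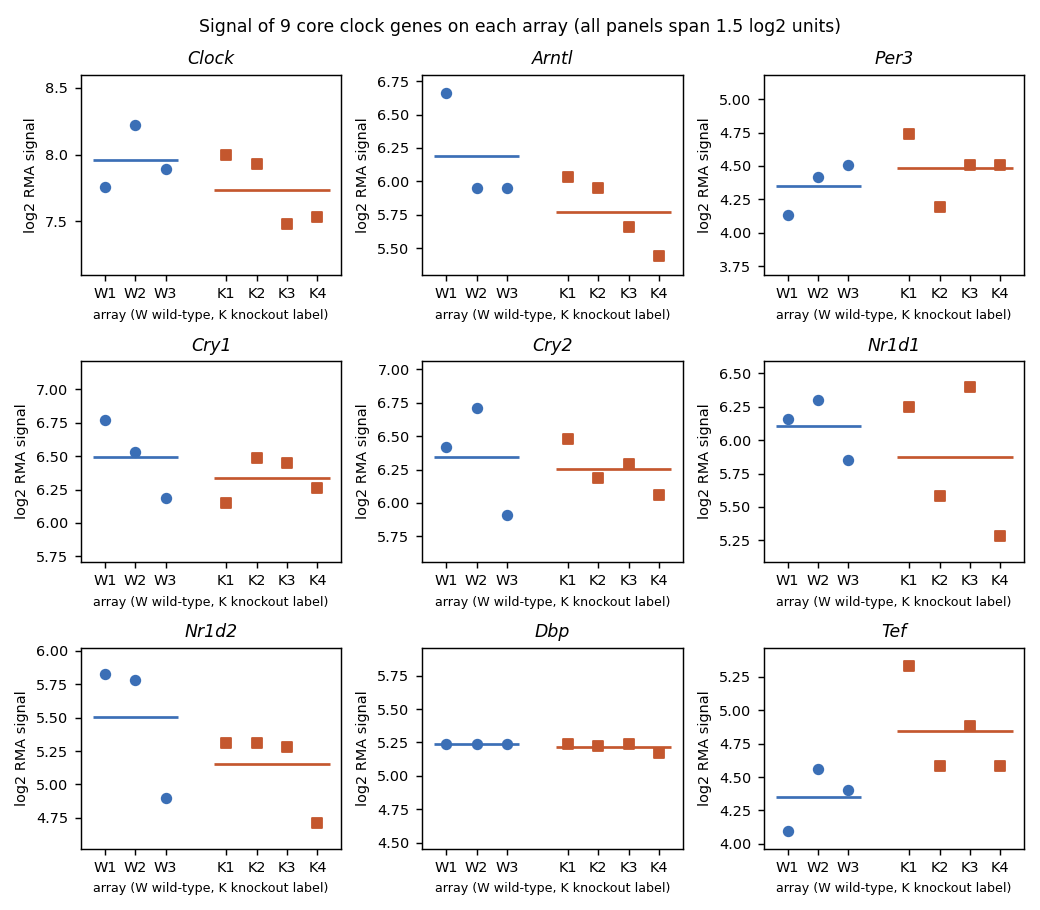
Log2 RMA signal of each core clock gene (vertical axis, 1.5 log2 units in every panel) in W1 to W3 (circles) and K1 to K4 (squares), with a line at each group mean. Tef is the only panel in which the groups do not overlap, by 0.02, and the Dbp points lie on a nearly flat line between 5.17 and 5.24.

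Among the activators, Arntl encodes the subunit without which the loop does not run in adult tissue. Arntl measured 6.66, 5.95 and 5.95 in W1 to W3 and 6.03, 5.95, 5.66 and 5.44 in K1 to K4. W1 stood at least 0.63 above every other array, and the other 2 wild-type-labelled values lay inside the knockout-labelled range. The same value, 5.95, stood in W2, W3 and K2, a tie on at least 3 arrays that 31.6% of genes tested also had. The group means were 6.19 ± 0.41 (SD, n = 3) and 5.77 ± 0.27 (SD, n = 4), and the difference was -0.42 (SE 0.22, 95% confidence interval -0.94 to 0.11, adjusted p = 0.971). Without W1 it was -0.18. Without W3 and K3 it was -0.50 (unadjusted p = 0.152).

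Clock encodes the partner of ARNTL in the activating dimer. Its signal was 7.76, 8.22 and 7.89 in W1 to W3 and 8.0, 7.93, 7.48 and 7.53 in K1 to K4. K3 and K4 were the lowest, while K1 and K2 lay within the wild-type-labelled range. Its difference was -0.22 (SE 0.18, 95% confidence interval -0.64 to 0.20, adjusted p = 0.971), and it was -0.09 without W2 and -0.17 without W3 and K3. Arntl and Clock were also lowest on the same pair of arrays, K3 and K4.

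Among the repressors, Per3 encodes a period protein that is largely dispensable for the rhythm in mice. Per3 measured 4.13, 4.42 and 4.51 in W1 to W3 and 4.74, 4.19, 4.51 and 4.51 in K1 to K4. The same value, 4.51, stood on 3 arrays across labels, as some value did on at least 3 arrays for 31.6% of genes tested, and the groups overlapped. The difference was 0.13 (95% confidence interval -0.23 to 0.50, adjusted p = 0.971). It was 0.02 without W1, 0.05 without K1 and 0.20 without W3 and K3.

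Cry1 and Cry2 encode the cryptochromes, the stronger repressors of the dimer. Cry1 measured 6.77, 6.53 and 6.19 in W1 to W3 and 6.15, 6.49, 6.45 and 6.26 in K1 to K4. Its highest values were in W1 and W2, and W3 lay among the knockout-labelled ones. The Cry1 difference was -0.16 (95% confidence interval -0.53 to 0.21, adjusted p = 0.971), -0.02 without W1 and -0.35 without W3 and K3 (unadjusted p = 0.0667). Cry2 measured 6.42, 6.71 and 5.91 in W1 to W3 and 6.48, 6.19, 6.29 and 6.06 in K1 to K4. Both its highest and its lowest value were wild-type-labelled. The Cry2 difference was -0.09 (95% confidence interval -0.56 to 0.37, adjusted p = 0.982), and its sign turned to 0.09 without W2. Without W3 and K3 it was -0.32 (unadjusted p = 0.124).

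The REV-ERB genes encode the heme-binding repressors of the second loop and had a larger SD over the 7 arrays (0.42 and 0.41) than the cryptochromes (0.22 and 0.27). Nr1d1 measured 6.16, 6.30 and 5.85 in W1 to W3 and 6.25, 5.58, 6.40 and 5.28 in K1 to K4. K1 to K4 held both its highest and its lowest value, 1.12 apart. The within-label spread was 0.44 and the difference -0.23 (SE 0.29, 95% confidence interval -0.90 to 0.45, adjusted p = 0.972). Without K4 that difference was -0.03, without K3 it was -0.40, and without W3 and K3 it was -0.53 (unadjusted p = 0.149).

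Nr1d2 measured 5.83, 5.78 and 4.90 in W1 to W3 and 5.31, 5.31, 5.28 and 4.71 in K1 to K4. W1 and W2 were higher than all knockout-labelled ones, and W3 was lower than all of them but K4. The means were 5.50 ± 0.52 (SD, n = 3) and 5.15 ± 0.30 (SD, n = 4), a difference of -0.35 (SE 0.27, 95% confidence interval -0.98 to 0.27, adjusted p = 0.971). Without W3 the difference was -0.65 (unadjusted p = 0.0161), and without W3 and K3 it was -0.69, with an unadjusted p of 0.0267 and an adjusted p of 0.382, the lowest over its alternatives, which reached 1. In that comparison of 5 arrays 10.7% of all genes had an unadjusted p under 0.05 and 0 were called. Without W3 alone the share was 7.9%, also with 0 called. Without W1 or W2 the difference was -0.19 or -0.21.

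Tef and Dbp encode PAR bZIP factors that bind D-boxes of output genes. Tef measured 4.10, 4.56 and 4.40 in W1 to W3 and 5.33, 4.58, 4.88 and 4.58 in K1 to K4. All knockout-labelled values were above all wild-type-labelled ones, but the gap between the nearest was 0.02, and K1 stood 0.45 above the next. The means were 4.35 ± 0.23 (SD, n = 3) and 4.84 ± 0.35 (SD, n = 4), and the difference was 0.49 (SE 0.21, 95% confidence interval -0.01 to 0.98), or 1.4-fold, with an unadjusted p of 0.0521 and an adjusted p of 0.971. Groups that did not overlap with the knockout-labelled side higher were found in 1.77% of all genes tested. The Tef difference was 0.33 without K1 and 0.59 without W2, and 0.50 without W3 and K3. With the mean of the gene's probe sets it was 0.29 (unadjusted p = 0.0353), the smallest of the alternatives, and over all of them the unadjusted p ran from 0.0179 (median centring) to 0.175 (without W1). A dimmer Tef probe set read 2.51 on 5 of the 7 arrays, 2.38 in W3 and 2.74 in K2, a difference of 0.10. The 2 Tef probe sets thus differed in size and in the array that was highest. However, all values of the dimmer one lay under 2.98, the mean signal below which genes were left out as dim. It therefore cannot decide whether the Tef difference holds, and the mean of the gene's probe sets includes it.

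Dbp is among the transcripts with the widest daily swing in adult mouse tissues. Here it measured 5.24 in all of W1, W2 and W3 and 5.24, 5.22, 5.24 and 5.17 in K1 to K4. The same value to 2 decimals thus stood on 5 of 7 arrays, as it did on at least 5 arrays for 4.99% of genes tested. The difference was -0.02 (95% confidence interval -0.19 to 0.15, adjusted p = 0.994), with the sign turning to 0.02 under quantile normalization of the deposited values and to 0.04 under median centring, and it was -0.03 without W3 and K3. Whether this probe set follows the Dbp transcript was not tested, and its narrow interval is a statement about the probe set's value.

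**Figure D2:**
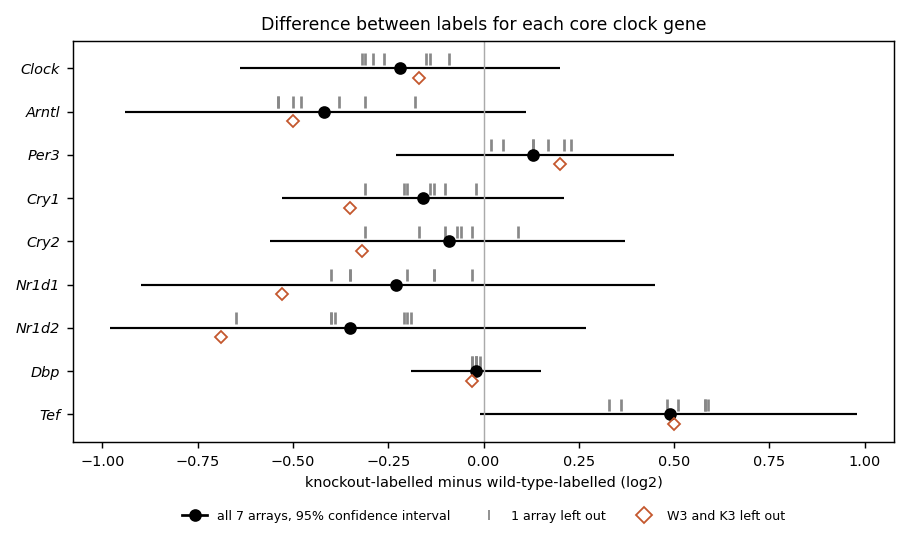
Mean of the knockout-labelled minus mean of the wild-type-labelled arrays (horizontal axis, log2 units) for each core clock gene, with the 95% confidence interval from limma (line). Grey ticks give the difference with 1 array left out and open diamonds the difference without W3 and K3. Every interval includes 0, that of Tef running from -0.01 to 0.98, and the ticks of Cry2 fall on both sides of 0.

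The members were unlike in how much they varied over the arrays. Of the 9 members, 4 (Arntl, Nr1d1, Nr1d2 and Tef) spanned at least 1 log2 unit over the 7 arrays, as did 16.4% of all genes tested. Nr1d1 had an SD of 0.42 over the 7 arrays, at percentile 91.0 of all genes tested, and Nr1d2 one of 0.41, at percentile 90.5. Tef and Arntl followed at 0.39 and 0.38, and Cry2, Clock, Cry1 and Per3 lay between 0.21 and 0.27. Dbp had an SD of 0.03, at percentile 0.926. For 7 of the 9 members the difference between labels was smaller than the SD within labels, the exceptions being Arntl (0.33 within labels) and Tef (0.31). The share of all genes tested for which this held was not measured, so whether the count is particular to the clock is not known.

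**Figure D3:**
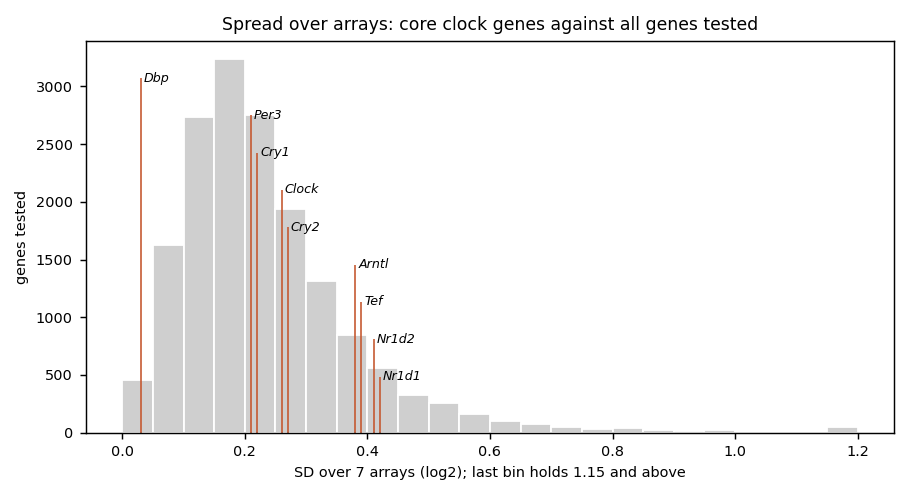
Number of genes tested (vertical axis) by the SD of their log2 signal over the 7 arrays (horizontal axis, grey bars), with a red line at each core clock gene. Dbp lies at 0.03 and the other members from 0.21 (Per3) to 0.42 (Nr1d1).

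The roles ordered the arrays differently. Deviations from each gene's mean over the 7 arrays were averaged by role and carry no test. The REV-ERB pair lay at 0.36, 0.40 and -0.26 in W1 to W3 and at 0.14, -0.19, 0.20 and -0.64 in K1 to K4. The activators Clock and Arntl lay at 0.32, 0.20 and 0.03 against 0.13, 0.05, -0.32 and -0.40. Clock, Arntl, Nr1d1 and Nr1d2 were all below their means in K4, as were Cry1, Cry2, Dbp and Tef. Only Per3 lay above its mean there. Elsewhere some pair means came from 1 gene: in W1 Arntl lay at 0.71 and Clock at -0.07, in W2 Clock at 0.39 and Arntl at 0.00, and in K3 Nr1d1 at 0.43 and Nr1d2 at -0.02. The means of the repressors Per3, Cry1 and Cry2 stayed between -0.17 and 0.18, but the single genes did not. In W1 Per3 lay at -0.30 and Cry1 at 0.36, and in K1 Per3 at 0.31 and Cry1 at -0.26. Cry2 ran from 0.42 in W2 to -0.38 in W3. Dbp and Tef lay highest in K1 (0.35) and lowest in W1 (-0.26), which follows Tef, since Dbp hardly varied.

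Other gene groups moved over the same arrays. The immediate early and dissociation stress genes Fos, Fosb, Jun, Junb, Egr1, Atf3, Ier2 and Dusp1 averaged 8.80, 8.50 and 6.83 in W1 to W3 and 7.99, 6.84, 9.09 and 6.48 in K1 to K4. The 4 arrays with the highest averages (K3, W1, W2 and K1) were also the 4 highest for Nr1d1. Glucocorticoid response genes, a list that includes the clock gene Per1, averaged 8.88, 8.98 and 7.41 against 7.76, 7.56, 8.54 and 7.15. These were highest in W1 and W2, as Nr1d2 was, and lowest in K4, as Nr1d1, Nr1d2 and Arntl were. Leukocyte markers, 8 of 8 measured, ranged from 5.70 to 6.44 in W1 to W3 and from 4.50 (K4) to 6.12 in K1 to K4. The leukocyte, lung epithelium and glucocorticoid response lists had the same 4 highest arrays as the immediate early list and Nr1d1. K4 was the lowest array for all of these lists and for the fibroblast and mural list. Among leukocyte markers Ptprc, Cd68, Lyz1 and Lyz2 were lowest in K4. The largest falls were those of Lyz1 (4.02 against 8.93 to 11.09 elsewhere) and Lyz2 (7.22 against 9.31 to 10.15). Ptprc read 3.51 in K4 against 4.45 to 4.85, and Cd68 4.74 against 5.57 to 6.23. Sftpa1 and Sftpb were also far lower in K4. Which cells gave the Lyz1 and Lyz2 signal was not tested, so the leukocyte and epithelial lists may not be separate observations. C1qa, C1qb, Csf1r and Cd14 were not lowest there, but in K4 they read only 3.97 to 4.28. That is near the array medians over all probe sets (3.86 to 4.03), where a further fall could hardly show. Fibroblast and mural markers, 8 of 8 measured, averaged 7.14, 7.54 and 7.14 against 7.84, 7.25, 7.57 and 6.88. They were highest in K1, where Tef was highest, and 7 of the 8 had a higher mean on the knockout-labelled side. The means of 8 of 8 leukocyte, 8 of 8 glucocorticoid response, 7 of 8 immediate early and 7 of 8 epithelial genes were lower on that side, as were those of 7 of the 9 clock members. No marker in these lists is at 0, a value that RMA does not produce here. With W3 and K3 left out, the immediate early, glucocorticoid response and leukocyte lists were all higher in W1 and W2 than in K1, K2 and K4. Sash1, on whose signal W3 and K3 were set aside, was also highest in W1, W2 and K3 and lowest in K4. So were the immediate early and glucocorticoid response lists. Label differences of clock genes without W3 and K3 cannot be told apart from the order of the immediate early, glucocorticoid response and leukocyte lists. The part of these groups in the clock values was not tested.

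**Figure D4:**
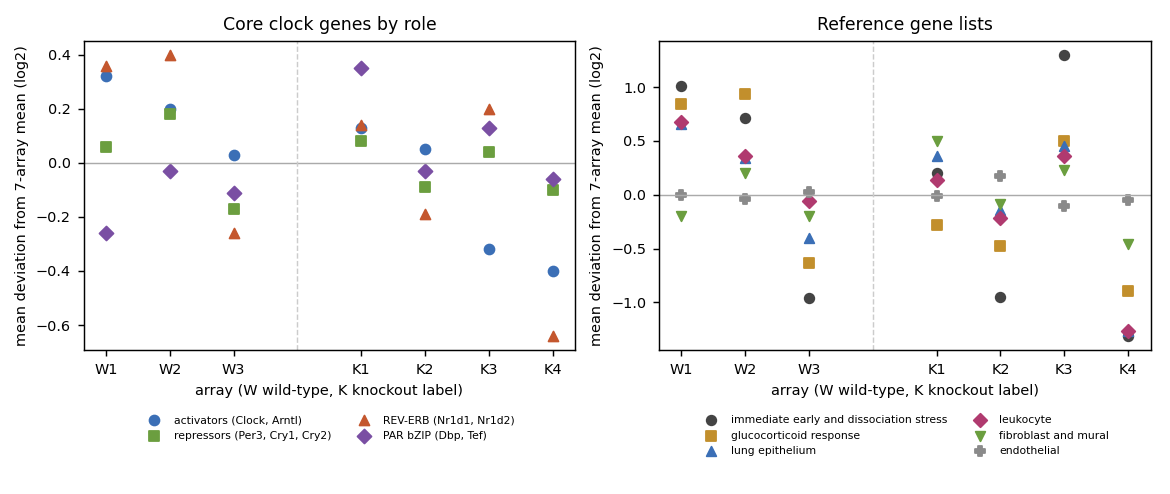
Mean deviation from the mean over 7 arrays on the log2 scale (vertical axes, different ranges) for the core clock genes by role (left) and for reference gene lists (right), by array. The REV-ERB pair runs from 0.40 in W2 to -0.64 in K4, and the immediate early list from 9.09 in K3 to 6.48 in K4 before centring.

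The rest of the clock transcription factors behaved alike in that none passed the test. There were 9 tested, 3 with positive and 6 with negative differences, a median of -0.09 and 0 called by limma at an adjusted or unadjusted p under 0.05. Bhlhe41 was left out as dim. Per1, the period gene that responds directly to glucocorticoids, measured 9.11, 9.25 and 8.29 in W1 to W3 and 8.86, 8.43, 9.06 and 8.33 in K1 to K4. Nfil3, a D-box repressor that opposes the PAR bZIP factors, measured 6.64, 6.61 and 5.55 against 5.96, 5.60, 6.71 and 5.49. Per1 and Nfil3 were high on the same 4 arrays as Nr1d1, across labels, and W3 was the lowest of all for Per1. The differences were -0.21 (95% confidence interval -0.87 to 0.44) for Per1 and -0.33 (-1.21 to 0.56) for Nfil3. Without W3 and K3 these were -0.64 and -0.94, with unadjusted p-values of 0.0209 and 0.00272. The adjusted p-values were 0.360 and 0.265, the lowest over the alternatives, which reached 1. In that comparison 10.7% of all genes had an unadjusted p under 0.05. The glucocorticoid response list, which holds Per1, was likewise higher in W1 and W2 there. Npas2, which can stand in for CLOCK, differed by -0.09, and Rora, the activator that competes with REV-ERB, by -0.14. Ciart, a repressor of the dimer, differed by -0.10, which turned to 0.13 without W3.

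Regulators of clock protein stability and activity gave 5 positive and 5 negative differences among the 10 tested of 12 listed, with a median of -0.04 and 0 called. Btrc, a ubiquitin ligase subunit that targets period proteins for degradation, measured 6.82, 6.42 and 7.07 in W1 to W3 and 7.16, 7.22, 7.42 and 6.99 in K1 to K4. Its groups overlapped only between W3 and K4, and the difference was 0.43 (95% confidence interval 0.02 to 0.83, unadjusted p = 0.042, adjusted p = 0.971). Btrc was the only one of these regulators with an unadjusted p under 0.05, which 3.34% of all genes reached. The casein kinase gene Csnk1e, whose product phosphorylates period proteins, differed by -0.17 (-0.41 to 0.07), and the kinase gene Gsk3b by -0.13 (-0.33 to 0.06). The Btrc difference was 0.25 without W2 (unadjusted p = 0.143) and 0.50 without W3 and K3 (unadjusted p = 0.0265). Its unadjusted p was also over 0.05 without W1, K1, K2 or K3 and with the random replicate block.

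Genes reported as outputs of the clock were lower on the knockout-labelled side in 7 of 8 tested (10 listed), with a median of -0.14 and 0 called, although Wee1, Nampt, Lpin1 and Thbd turned sign when some 1 array was left out. Noct, a rhythmic gene known as nocturnin, measured 5.41, 6.24 and 4.76 in W1 to W3 and 4.86, 4.60, 4.93 and 4.93 in K1 to K4. W1 and W2 were the highest, and W3 was below all knockout-labelled arrays but K2. The Noct difference was -0.64 (95% confidence interval -1.38 to 0.10, adjusted p = 0.971). It was -0.26 without W2, -0.99 without W3 (unadjusted p = 0.00616) and -1.03 without W3 and K3 (unadjusted p = 0.015, adjusted p = 0.328). The mitochondrial protein gene Tspo differed by -0.25 (-0.70 to 0.20), the glycolysis regulator Pfkfb3 by -0.25 (-0.75 to 0.25) and the vasopressin receptor gene Avpr1a by 0.13 (-0.26 to 0.52), a sign that turned to -0.01 without W1. Tspo was -0.04 without W1 and -0.42 without W3. Pfkfb3 was -0.04 without W2, -0.52 without W3 (unadjusted p = 0.00596) and -0.49 without W3 and K3 (unadjusted p = 0.0164). An unadjusted p under 0.05 was reached by 7.9% of all genes without W3 and by 10.7% without W3 and K3.

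Genes with the most similar profiles over the 7 arrays were sought for the 4 members that spanned at least 1 log2 unit, by the root mean square difference of values centred on each gene's mean. Nr1d1 was nearest to Btg2, an immediate early antiproliferative gene, at 0.0833, followed by Otulinl (0.132) and Wfdc17 (0.142). Btg2 measured 10.10, 10.15 and 9.64 in W1 to W3 and 10.02, 9.30, 10.29 and 9.24 in K1 to K4, the same order of high and low arrays as for Nr1d1 except that W1 stood above K1. Nr1d2 was nearest to Slc12a4, a potassium chloride cotransporter gene (0.0904), Sqstm1, which encodes the autophagy receptor p62 (0.0967), and Cep170b (0.103). Arntl was nearest to Timm29 (0.11), Deptor (0.114) and Ptpn1 (0.139), each highest in W1. Tef was nearest to Sfrp1, a secreted Wnt antagonist (0.086), Large2 (0.108) and Rasgrp1 (0.127), each highest in K1. These 12 genes were picked from 16637 for their likeness over 7 arrays and are a description, and no gene of the clock lists was among them.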

How the data were processed

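Biotin-labelled, amplified RNA of 7 lung endothelial samples was measured on Affymetrix arrays, each sample on its own array. The authors deposited 1 log2 value per probe set and array, made with RMA in Affymetrix Expression Console 1.1, per the submitters' processing notes. That the scale is log2 was inferred from their range. RMA fits probe sets over all arrays jointly, which can return identical values on several arrays, and no reads or detection calls stand behind them, so precision is limited by how many arrays there are.

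Gene names came from the platform's annotation (23521 with 1 symbol, 1814 with several, 16010 with none), updated by gene identifier through RefSeq (GRCm38.p6). The brightest probe set stood for a gene. The dimmest 25% of genes by mean were left out, leaving 16637. Labels were compared with limma 3.58.1 in R 4.3.3 (lmFit, eBayes, genotype as the only term, two-sided, Benjamini-Hochberg over all genes), and the fit was tested on simulated data. The genes that could be named were all members, the other clock factors and regulators on the array, 4 output genes of smallest p, 3 nearest profiles per member spanning at least 1 log2 unit, and Sash1. Wee1, Nampt, Lpin1 and Thbd are named outside this rule for their turned signs, after their values were seen. Members and lists were chosen with earlier results of these data known. Alternatives changed the filter (none or 50%), scaling, moderation, array weights, probe set rule, replicate block, threshold (0.1) and the arrays included.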

Additional observations from a re-analysis of the deposited data

Results flagged for a closer look

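Among the 36 clock, regulator and output genes, the 4 knockout-labelled arrays were searched for a value standing apart from the other 3. Such a gap stood in 5 of the 36, and in 15.8% of all 16637 genes tested. Chance gives it in about 1 group in 20 for values that vary freely, which near-identical RMA values do not: Arntl2 was 3.46 and Cipc 5.46 to 5.47 on the other 3 arrays. Nr1d2 was at 4.71 in K4, against 5.28 to 5.31 in K1, K2 and K3. Arntl2 was at 3.37 in K1, Fbxl21 at 3.03 in K3 and Cipc at 5.36 in K2, each the lowest, and Timeless was at 5.43 in K2, the highest.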

How the results depend on the processing

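In each of the 18 alternatives run with limma, and at an adjusted p under 0.1, 0 members, 0 genes of the other clock lists and 0 genes over all were called, with unadjusted p under 0.05 for 225 (replicate block as a fixed effect) to 1779 genes (without W3 and K3). The smallest adjusted p of a member was 0.382 (Nr1d2, those left out). Same-numbered arrays were not alike: their deviations correlated at -0.183, -0.2 and -0.552, and 0 of 6 arrays lay closest to their own number. These deviations were taken from label means, and the Sash1 signal of W3 and K3 goes against their labels. The check therefore cannot decide whether samples were paired by litter or collection. With the replicate block, fixed (which sets aside K4) or random, 0 members were called. Per3 could not be fitted with the dimmest 50% left out. Of the members, Dbp turned sign with quantile normalization (0.02) and median centring (0.04). So did Arntl2 (0.02 in each), and with median centring Nampt (0.0025) and Lpin1 (0.04). With array weights Ciart (0.05), Fbxw11 (-0.01) and Usp2 (-0.11) turned, with the fixed block Hlf (-0.03) and Lpin1 (0.04), and without W3 and K3 Ciart (0.19) and Usp2 (-0.28). The causes were not tested. With 1 array left out, differences that crossed 0 ranged from -0.31 to 0.09 for Cry2, -0.06 to 0.12 for Hlf, -0.16 to 0.15 for Bhlhe40, -0.23 to 0.13 for Ciart, -0.07 to 0.08 for Fbxw11, -0.05 to 0.28 for Timeless, -0.19 to 0.38 for Usp2, -0.54 to 0.14 for Wee1, -0.16 to 0.01 for Nampt, -0.01 to 0.30 for Avpr1a, -0.11 to 0.12 for Lpin1 and -0.28 to 0.02 for Thbd.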
